A study of Mus musculus with 12 samples.

Results

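The comparison set adult mouse neural stem cells (NSCs) held in BMP4 alone against the same cells dividing in EGF and FGF2. It used 8 of the 12 libraries of the study, chosen by their labels: 4 BMP libraries, which the study calls dormant quiescent NSCs (d-qNSCs), and 4 EGF/FGF libraries of proliferating NSCs. Each condition held 2 biological replicates of the ANS4 line, derived from MF1 mice, and 2 of the BL6 line, derived from C57BL/6 mice, all wild type and from the subventricular zone (SVZ) of animals aged 6 to 8 weeks. Cells grew attached to laminin in serum-free medium with N2 and B27 supplements, and each factor was given at 10 ng/ml for 3 days. The BMP medium therefore differed from the EGF/FGF medium in 3 ways at once, the presence of BMP4 and the absence of EGF and of FGF2, and these cannot be told apart here. The other 4 libraries, BMP/FGF, entered the fit for its estimate of the spread. Each line stands for 1 derivation, so that in a difference between the lines culture and mouse strain cannot be told apart.

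In the SVZ most NSCs are astrocyte-like cells that rest outside the cell cycle, and a smaller number divide and give rise to neuroblasts bound for the olfactory bulb and to some oligodendrocytes. BMP ligands bind serine/threonine kinase receptors that phosphorylate SMAD proteins, which switch on Id genes and a set of feedback inhibitors, and BMP is known to hold NSCs in quiescence. EGF and FGF2 act through receptor tyrosine kinases and the ERK kinase cascade, which drives D cyclins and also its own inhibitors. A cell that leaves the cycle is known to shut down the genes of DNA replication and mitosis and to lower the making of ribosomes.

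Library totals ran from 18069052 to 18711746 counts in BMP and from 19160194 to 19451818 in EGF/FGF, and values are given as CPM, the counts of a gene scaled to a common library size. A rise or a fall is therefore relative to all other messages, since RNA per cell was not measured, and in bulk RNA fewer cells that express a gene and less RNA per cell cannot be told apart. Where 4 values are listed, their order is ANS4 replicate 1, ANS4 replicate 2, BL6 replicate 1 and BL6 replicate 2. A span gives the lowest and highest library, and a change written from one span to another runs from EGF/FGF to BMP. All differences are log2 fold changes of BMP over EGF/FGF with their standard error (SE) and the false discovery rate (FDR) of edgeR's quasi-likelihood test. Along the first principal component, which carried 91.9% of the variance of the 8 libraries, the EGF/FGF libraries lay between −61.6 and −53.3 and the BMP libraries between 55.7 and 58.6.

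Of 13312 genes tested, 10596 (79.6%) differed at FDR under 0.05, with 5426 higher in BMP (40.8%) and 5170 lower (38.8%). The median over all tested genes was 0.02, and the middle of the distribution was wide, with the 10th percentile at −1.21 and the 90th at 1.61. Past the study's threshold of 1.5 on the log2 scale, 1445 genes were higher (10.9%) and 925 lower (6.95%). In 9465 genes (71.1%) the 4 BMP libraries did not overlap the 4 EGF/FGF libraries. Because most genes differed, the count of members called in each gene list below is to be read against these shares, and its median against 0.02. The large changes were mostly rises: 440 genes lay more than 3 log2 higher against 146 more than 3 lower, and 98 against 22 lay past 5. Genes with at most 3 counts in each library of a condition were taken as being at a floor there, and 70 genes at the floor in EGF/FGF reached a mean of 1 CPM in BMP, against 21 in the other direction.

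**Figure D1:**
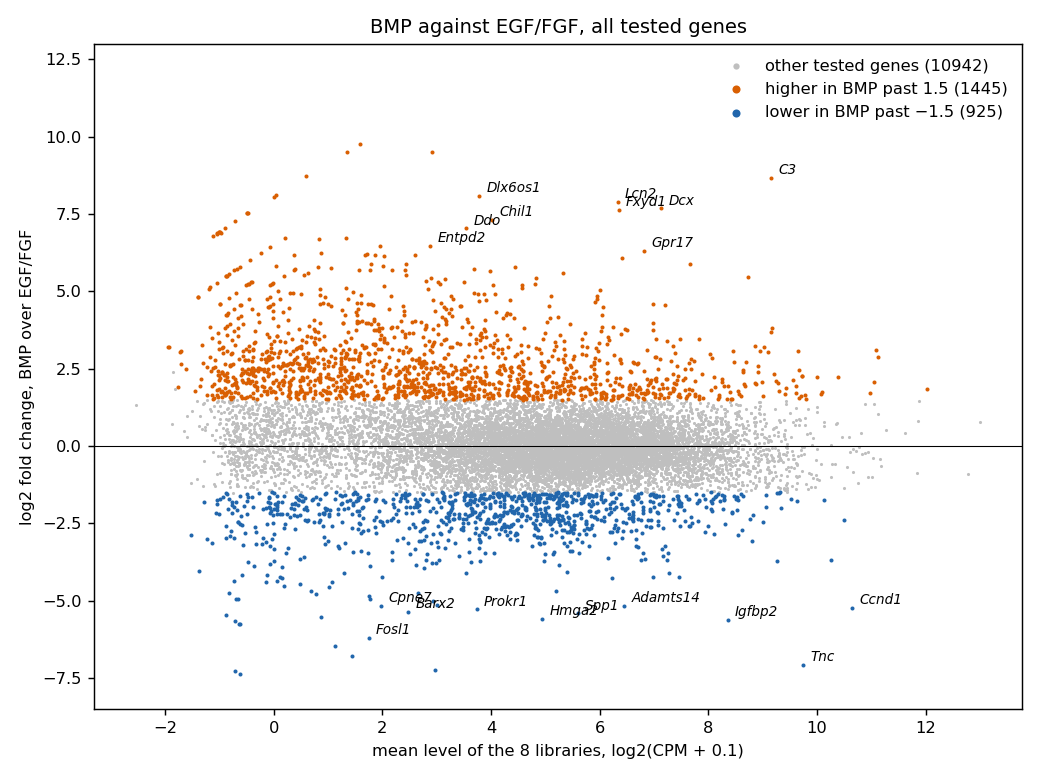
Log2 fold change of BMP over EGF/FGF (vertical axis) against the mean log2 CPM of the 8 libraries (horizontal axis) for the 13312 tested genes, 1 point per gene; 1445 genes past 1.5 are drawn in orange and 925 past −1.5 in blue, both at FDR under 0.05. The upper points spread further from 0 than the lower ones, and the labels mark the genes named in the text from the 10 largest rises and 10 largest falls among genes above the floor with a mean of at least 1 CPM.

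The cell cycle genes fell in a body. Of 37 genes for DNA replication and S-phase entry, 37 fell in BMP, 34 of them by more than 1.5, and the median was −2.16, and of 36 genes for mitosis, the spindle and the kinetochore, 36 were lower, all past 1.5, with a median of −2.54. Values ran from −3.50 (Tk1, thymidine kinase) to −0.38 in the replication list and from −3.25 (Ccnb2, cyclin B2) to −1.97 in the mitosis list. Summed over the 36 mitosis genes, expression was 5837, 5757, 7115 and 6997 CPM in EGF/FGF and 953, 879, 1429 and 1288 in BMP. The mean of the BMP libraries was 15.8% of the EGF/FGF mean in ANS4 and 19.2% in BL6. Mki67 stood at 545, 533, 804 and 742 CPM in EGF/FGF and at 63.2, 54.6, 129.9 and 118 CPM in BMP. In log2 terms the change was −2.88 (SE 0.16, FDR = 9.27e-12). This proliferation marker was higher in BL6 than in ANS4 in both conditions, and the fall was smaller in BL6 by 0.55 (interaction FDR = 0.00624). In EGF/FGF Top2a was at 839, 788, 904 and 928 CPM, and in BMP at 139, 124, 207 and 169. On the log2 scale this is −2.45 (SE 0.10, FDR = 2.58e-13). The level of Cdk1 was 149, 171, 175 and 166 CPM in EGF/FGF and 28.7, 29.6, 34.3 and 31.1 in BMP. BMP thus differed from EGF/FGF by −2.42 (SE 0.066, FDR = 1.25e-15). For Top2a, which untangles DNA before division, and Cdk1, the kinase that starts mitosis, no BMP library came near an EGF/FGF library. The kinase gene Aurkb fell from 67.5–79.99 to 10.2–14.7 CPM (−2.63, SE 0.086, FDR = 1.19e-14), Hmmr, a spindle protein, from 157–206 to 15.1–25.9 CPM (−3.25, SE 0.11, FDR = 1.33e-14) and the kinetochore motor Cenpe from 118–186 to 10.02–31.6 CPM (−2.97, SE 0.18, FDR = 4.91e-11). In the replication list, the helicase subunit Mcm2 went from 204–227 to 44.2–53.2 CPM (−2.15, SE 0.075, FDR = 2.71e-14), the sliding clamp Pcna from 404–458 to 96.3–111 CPM (−2.02, SE 0.063, FDR = 6.11e-15), cyclin E1 (Ccne1) from 28.1–31.7 to 6.01–6.93 CPM (−2.23, SE 0.10, FDR = 1.15e-12), the polymerase gene Pold1 from 69–81.9 to 9.61–14.6 CPM (−2.72, SE 0.098, FDR = 4.21e-14) and the origin protein Orc1 from 12.2–13.1 to 0.775–1.46 CPM (−3.49, SE 0.17, FDR = 1.66e-12). Of these, Pcna fell least and Tk1 and Orc1 most. None of the 37 replication genes and 7 of the 36 mitosis genes differed between the lines in their change.

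The mitosis list is known to share 2 promoter elements, the CHR element (TTTGAA) and the CCAAT box, whereas genes of the G1/S transition more often carry E2F sites. The reference promoters (RefSeq on GRCm38.p6, 250 bases before to 50 after the start) were searched on both strands for TTTGAA, for CCAAT, for TTCCCGC (the E2F core), for GGCGCC (a SMAD-binding GC site) and for CACGTG (an E-box), of which GGCGCC and CACGTG read the same on both strands and the others can share at most their end letters. TTTGAA was found in 21 of the 30 mitosis genes with an entry (70%), in 5 of 29 replication genes (17.2%) and in 20.2% of the 27025 genes of the table. CCAAT was found in 22 of the 30 mitosis genes (73.3%), 16 of 29 replication genes (55.2%) and 41.1% of all. TTCCCGC was found in 1 of the 30 mitosis genes (3.33%), 12 of 29 replication genes (41.4%) and 5.29% of all. GGCGCC was found in 6 of 13 BMP targets with an entry (46.2%) against 13.4% of all, and CACGTG in 6 of 23 ribosome biogenesis genes (26.1%) against 8.09%. Neither was confined to that list. GGCGCC stood in 20.7% of replication, 16.7% of mitosis and 21.7% of ribosome biogenesis genes, and CACGTG in 17.2% of replication and 10.0% of mitosis genes. CCAAT stood in 8 of the 13 BMP targets (61.5%) and 26.1% of ribosome biogenesis genes. The shares of all refer to every gene with a promoter entry, tested or not. A match is a run of letters and not a measured site. The 150 bases before the start of 3 genes of the mitosis list are shown because both elements stand in them within a short distance; capitals mark TTTGAA and CCAAT or their reverse complements, all 3 genes lie on the minus strand, and the coordinates are those of GRCm38.
Mki67, chr7:135716380-135716529: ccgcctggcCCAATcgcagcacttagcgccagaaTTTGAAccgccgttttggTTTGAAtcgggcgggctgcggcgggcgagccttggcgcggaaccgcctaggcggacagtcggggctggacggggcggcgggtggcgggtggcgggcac
Top2a, chr11:99024190-99024339: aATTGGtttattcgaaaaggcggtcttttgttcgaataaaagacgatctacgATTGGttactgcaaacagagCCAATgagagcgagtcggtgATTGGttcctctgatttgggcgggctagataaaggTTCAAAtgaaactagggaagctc
Cdk1, chr10:69352913-69353062: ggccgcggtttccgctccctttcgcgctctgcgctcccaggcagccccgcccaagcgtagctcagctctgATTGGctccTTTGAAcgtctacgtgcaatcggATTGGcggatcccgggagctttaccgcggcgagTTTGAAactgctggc
In Mki67, CCAAT begins 141 bases before the start and the 2 copies of TTTGAA follow at 116 and 98. In Top2a, CCAAT occurs 4 times, at 149, 98, 78 and 58 bases, and TTTGAA once on the other strand at 23. In Cdk1, the CCAAT boxes at 80 and 48 bases are each followed by TTTGAA, at 71 and 15.

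The regulators around the cycle moved in both directions. Of 26 tested genes for CDK inhibitors, D cyclins, pocket proteins and related factors, 13 were higher, 11 lower and 2 did not pass, with a median of 0.12. For Ccnd1 the EGF/FGF libraries gave 3127, 3184, 3125 and 3042 CPM and the BMP libraries 63.4, 59.5, 108 and 108. Its log2 fold change was −5.24 (SE 0.14, FDR = 9.38e-16). Cyclin D1, the mitogen-driven partner of CDK4 and CDK6, was thus among the 10 largest falls of genes above the floor with a mean of at least 1 CPM, and it stayed higher in BL6 than in ANS4 under BMP (line difference 0.85, interaction FDR = 1.16e-05). In the EGF/FGF libraries Cdkn1b held 205, 192, 183 and 184 CPM, and in the BMP libraries 325, 324, 353 and 318. The log2 fold change was 0.79 (SE 0.059, FDR = 7.41e-10). This gene encodes p27, an inhibitor known to mark G0, and its rise was modest but separated all libraries. Dividing cells read Cdkn1a at 340.3, 331, 281 and 263 CPM and BMP cells at 80.1, 70.2, 62.9 and 77.8. The estimate was −2.06 (SE 0.078, FDR = 7.12e-14). The p21 gene therefore fell while that of p27 rose. Cdkn1c, which encodes p57, did not pass the test, at 1.83 to 3.01 CPM in BMP and 1.61 to 3.31 in EGF/FGF (−0.0031, SE 0.21, FDR = 0.991). Its values in each line alone had opposite signs, −0.53 in ANS4 (FDR = 0.0565) and 0.50 in BL6 (FDR = 0.0796), and the line difference did not pass either (FDR = 0.0629). The pocket protein gene Rbl1 (p107) fell with the replication genes (108–126 to 24.2–27.6 CPM, −2.20, SE 0.086, FDR = 1.10e-13). Foxo3, a transcription factor tied to NSC quiescence, rose from 33.05–41.5 to 85.8–97.9 CPM (1.26, SE 0.073, FDR = 2.60e-11).

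The 2 Myc genes of the list parted. Myc went from 99.02, 105, 109.9 and 102 CPM in EGF/FGF to 30.4, 34.4, 60.1 and 68.8 in BMP. That is a log2 fold change of −1.15 (SE 0.14, FDR = 7.46e-07). The fall was smaller in BL6 by 0.94 (interaction FDR = 0.000109). Counts of Mycn came to 2.85, 3.26, 3.85 and 4.18 CPM in EGF/FGF and to 17.4, 20.9, 14.8 and 18.8 in BMP. The difference was 2.34 (SE 0.15, FDR = 8.90e-11). Mycn, which can stand in for Myc, moved the opposite way in all 4 libraries. Of 20 p53 target genes, 16 fell and 3 rose, with a median of −0.80, so the fall of Cdkn1a was shared by most of them. Plk2 went from 191–211 to 14.5–23.7 CPM (−3.46, SE 0.094, FDR = 1.16e-15), Pmaip1, a mediator of apoptosis, from 18.8–26.6 to 2.35–3.63 CPM (−2.82, SE 0.13, FDR = 6.99e-13) and Mdm2, the p53 ubiquitin ligase, from 85.5–91.8 to 54.7–68.3 CPM (−0.56, SE 0.067, FDR = 4.15e-07). Gdf15 was at the floor in BMP and at least 4.70-fold lower. The rises in this list included Sesn1, a stress sensor that restrains mTORC1 (65.1–80.9 to 214–263 CPM, 1.71, SE 0.073, FDR = 3.45e-13), and Fas, a death receptor (10.3–15.6 to 29.6–40.1 CPM, 1.501, SE 0.12, FDR = 2.63e-09).

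**Figure D2:**
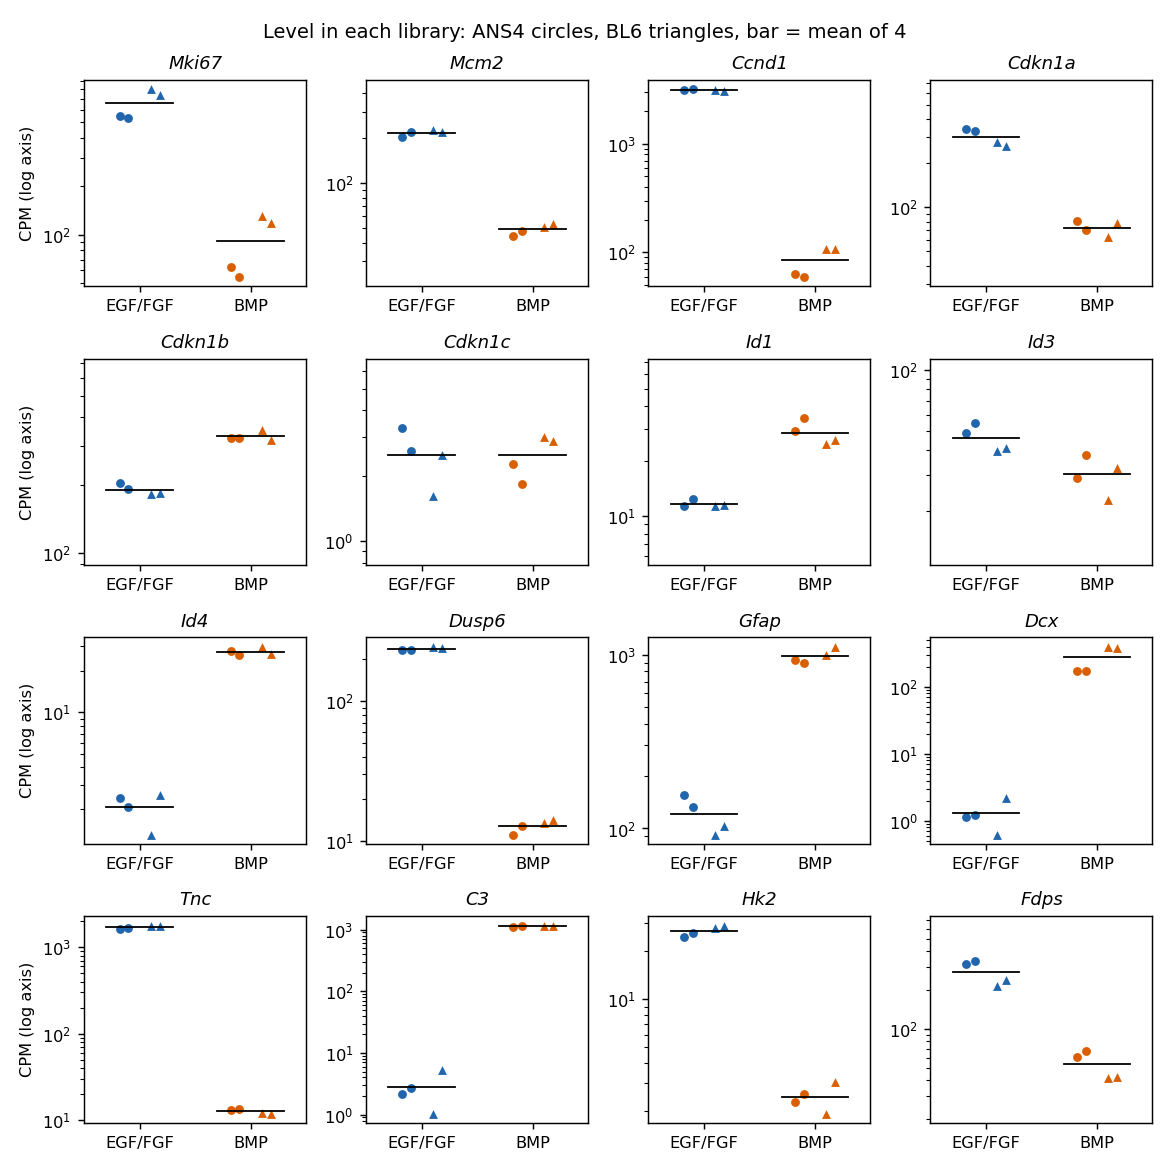
Level of 16 genes in the 8 libraries, in CPM on a log axis (EGF/FGF blue, BMP orange), 1 panel per gene, with ANS4 as circles, BL6 as triangles and a bar at the mean of the 4 libraries of each condition. Ccnd1, Mki67, Tnc, Hk2 and Fdps lie lower in BMP without overlap, Gfap, Dcx, C3, Id4 and Cdkn1b higher without overlap, and Cdkn1c overlaps.

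BMP target genes rose as a group but not one by one. Of 21 tested, 15 were higher, 4 lower and 2 did not pass, with a median of 0.90. Id1 was read at 11.3, 12.3, 11.4 and 11.5 CPM in EGF/FGF and at 29.4, 34.6, 24.7 and 26.2 in BMP. This gave a log2 fold change of 1.29 (SE 0.099, FDR = 1.15e-09). Id4 stood at 2.38, 2.07, 1.301 and 2.53 CPM in EGF/FGF and at 27.7, 26.01, 29.8 and 26.5 CPM in BMP. In log2 terms the change was 3.73 (SE 0.13, FDR = 2.60e-14). In EGF/FGF Id3 was at 48.7, 54.3, 39.7 and 41.2 CPM, and in BMP at 29.3, 38.03, 22.6 and 32.5. On the log2 scale this is −0.59 (SE 0.11, FDR = 0.000147). The Id genes encode inhibitors of bHLH factors and are the best known SMAD targets, yet Id3 lay lower in every BMP library than in any EGF/FGF library. Atoh8, a bHLH factor, rose from 0.729–1.08 to 24.4–37.5 CPM (4.91, SE 0.17, FDR = 3.41e-14). Among the feedback inhibitors, Smad6, which blocks the receptors, rose from 0.465–0.729 to 1.71–3.53 CPM (2.11, SE 0.27, FDR = 1.41e-06), whereas Bambi, a decoy receptor, fell from 6.25–7.82 to 3.49–5.36 CPM (−0.70, SE 0.14, FDR = 0.000228). Nog, the secreted antagonist noggin, was at the floor in EGF/FGF and reached 0.622 to 1.25 CPM in BMP, at least 3.98-fold higher.

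Feedback genes of the FGF and EGF pathway fell: 16 of 21 were lower, 4 higher and 1 did not pass, with a median of −0.99. The level of Dusp6 was 233, 235, 246 and 243 CPM in EGF/FGF and 11.04, 12.8, 13.4 and 14.03 in BMP. BMP thus differed from EGF/FGF by −4.22 (SE 0.075, FDR = 1.67e-17). Dusp6, a phosphatase of ERK, had one of the 5 lowest p-values among falling genes. Spry4, an inhibitor of receptor signalling, fell from 126–138 to 8.91–11.97 CPM (−3.62, SE 0.074, FDR = 5.17e-17), and the ETS factors Etv4 and Etv5 from 76.3–81.3 to 2.98–6.21 CPM (−4.08, SE 0.12, FDR = 3.74e-15) and from 469–494 to 51.6–88.1 CPM (−2.85, SE 0.11, FDR = 5.89e-14). For Fosl1 the EGF/FGF libraries gave 4.66, 5.17, 9.004 and 6.92 CPM and the BMP libraries 0.221, 0.0554, 0 and 0.0521. Its log2 fold change was −6.20 (SE 0.39, FDR = 7.41e-11). This AP-1 subunit came close to the floor in BMP. In the EGF/FGF libraries Fos held 62.3, 67.2, 44.2 and 41.6 CPM, and in the BMP libraries 231, 222, 250.5 and 274. The log2 fold change was 2.17 (SE 0.16, FDR = 6.75e-10). Fos, an immediate early gene that ERK activates, thus moved against the median of its list, and its rise was larger in BL6 by 0.80 (interaction FDR = 0.000109). The other 3 rises were those of the Lrig genes, of which Lrig2 moved most (18.5–20.3 to 37.3–41.9 CPM, 1.03, SE 0.076, FDR = 6.72e-10).

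Most receptors of the list moved against the feedback genes: 10 of 13 receptor tyrosine kinase genes rose and 1 fell, with a median of 0.56. The list also holds receptors that do not bind EGF or FGF2, such as Ntrk2. Fgfr1 did not pass, at a mean of 146.2 CPM in EGF/FGF and 136.9 in BMP (−0.095, SE 0.061, FDR = 0.158). Fgfr2 rose from a mean of 54.7 to 129.4 CPM (1.24, SE 0.069, FDR = 1.35e-11). Dividing cells read Egfr at 364, 362, 345 and 343 CPM and BMP cells at 208, 219, 174 and 164. The estimate was −0.89 (SE 0.071, FDR = 1.88e-09). Egfr, a marker of activated NSCs, was the one that fell. Ntrk2 went from 521, 503, 397 and 411 CPM in EGF/FGF to 4115, 4076, 3617 and 3731 in BMP. That is a log2 fold change of 3.09 (SE 0.085, FDR = 1.47e-15). Ntrk2 encodes the BDNF receptor TrkB, of which astrocytes make a form without the kinase; gene counts do not part the forms. Erbb4 rose from 0.155–0.3101 to 3.09–8.09 CPM (4.62, SE 0.30, FDR = 1.07e-10) and Erbb3 from 0.207–0.364 to 0.834–1.44 CPM (1.97, SE 0.33, FDR = 2.63e-05), both from near the detection limit. Fgfr3, known from quiescent NSCs and astrocytes, rose from 114–143 to 149–208 CPM (0.48, SE 0.075, FDR = 1.14e-05), and Pdgfra from 27.8–33.3 to 52.4–98.8 CPM, more in BL6 (1.24, SE 0.14, FDR = 3.02e-07, line difference 0.98).

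Astrocyte genes rose. Of 25 tested, 23 were higher, 18 of them past 1.5, 1 was lower and 1 did not pass, with a median of 2.05. Counts of Gfap came to 155, 133, 92.1 and 103 CPM in EGF/FGF and to 926, 889, 998 and 1108 in BMP. The difference was 3.04 (SE 0.12, FDR = 1.86e-13). Aqp4 was read at 105, 97.2, 58.6 and 68.97 CPM in EGF/FGF and at 1255, 1248, 870.1 and 825 in BMP. This gave a log2 fold change of 3.68 (SE 0.12, FDR = 1.09e-14). Both the filament protein and the water channel were already read in every library of dividing cells. Slc1a3, the glutamate transporter GLAST, rose from 1055–1306 to 2729–3348 CPM (1.37, SE 0.067, FDR = 2.52e-12), Sparcl1, a matrix protein, from 5.12–8.68 to 378–422 CPM (5.89, SE 0.15, FDR = 7.26e-16) and Clu, the lipid carrier clusterin, from 14.3–23.3 to 778–884 CPM (5.46, SE 0.12, FDR = 7.54e-17). S100b, a marker of mature astrocytes, reached only 1.97 to 2.43 CPM from 0.518 to 0.9 (1.72, SE 0.24, FDR = 2.85e-06). Kcnj10 stood at 944, 921, 816 and 766 CPM in EGF/FGF and at 654, 605, 452 and 467 CPM in BMP. In log2 terms the change was −0.67 (SE 0.072, FDR = 1.05e-07). This potassium channel of astrocytes was the only gene of the list that fell. Gfap and Clu rose more in BL6 (0.78 and 0.63; interaction FDR = 0.000255 and 0.00241), and Sparcl1 rose less (−0.68, FDR = 0.00636).

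The list of NSC markers, checked because the libraries are labelled as NSCs, was read in both conditions: 15 of 22 rose and 7 fell, with a median of 0.52. In EGF/FGF Sox2 was at 499, 492, 457 and 456 CPM, and in BMP at 755, 658, 706 and 653. On the log2 scale this is 0.54 (SE 0.06, FDR = 1.80e-07). The level of Nes was 535, 498, 625 and 618 CPM in EGF/FGF and 141, 119, 129 and 116 in BMP. BMP thus differed from EGF/FGF by −2.17 (SE 0.078, FDR = 3.49e-14). For Fabp7 the EGF/FGF libraries gave 2357, 2596, 2503 and 2185 CPM and the BMP libraries 666, 557, 403 and 277. Its log2 fold change was −2.39 (SE 0.14, FDR = 3.55e-11). Sox2, a core NSC transcription factor, was thus higher in quiescence, while Nes (nestin) and Fabp7, both linked to dividing progenitors, fell. Prom1 rose from 22.2–23.3 to 50.97–61.5 CPM (1.271, SE 0.073, FDR = 2.02e-11), the adhesion molecule Vcam1 from 166–216 to 449–718 CPM (1.63, SE 0.097, FDR = 3.58e-11), and Cd9, the surface marker that the study used, from 222–282 to 286–332 CPM (0.30, SE 0.071, FDR = 0.000976).

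In Notch and Hedgehog genes the members split. Of 15 Notch pathway genes 8 rose and 6 fell (median 0.25): Dll3 went from 9.94–15.97 to 36.1–53.1 CPM (1.70, SE 0.14, FDR = 1.90e-09) and Dll1 from 49.4–65.5 to 69.02–80.7 CPM (0.49, SE 0.086, FDR = 5.20e-05), whereas the ligand Jag1 fell from 44.9–53.3 to 12.4–14.7 CPM (−1.82, SE 0.07, FDR = 8.53e-14) and the targets Hes5 and Nrarp from 7.49–12.7 to 2.54–5.41 CPM (−1.22, SE 0.17, FDR = 4.05e-06) and from 23.7–28.7 to 6.48–12.7 CPM (−1.42, SE 0.11, FDR = 8.81e-10). Of 10 Hedgehog genes 3 rose and 4 fell (median −0.07). In the EGF/FGF libraries Gli1 held 1.71, 1.602, 2.03 and 1.29 CPM, and in the BMP libraries 0.0552, 0.111, 0.155 and 0.313. The log2 fold change was −3.32 (SE 0.35, FDR = 7.71e-08). Gli1, a target of the pathway, was low in all libraries, and Ptch1, the receptor and also a target, rose (108–114 to 192–201 CPM, 0.82, SE 0.052, FDR = 8.09e-11). Gli3 fell from 18.2–24.7 to 10.5–15.9 CPM (−0.79, SE 0.13, FDR = 1.77e-05).

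Genes of young neurons rose under BMP. Of 21 tested, 16 were higher, 14 of them past 1.5, 3 were lower and 2 did not pass, with a median of 3.02, the highest of the lists. Dividing cells read Dcx at 1.14, 1.24, 0.625 and 2.17 CPM and BMP cells at 174, 169.9, 396 and 379. The estimate was 7.69 (SE 0.25, FDR = 9.97e-15). Doublecortin, a microtubule protein of migrating neuroblasts, was read in dividing cells at no more than 2.17 CPM. Dlx2 went from 14.3, 15.6, 14.1 and 15.03 CPM in EGF/FGF to 167, 183, 265 and 339 in BMP. That is a log2 fold change of 3.99 (SE 0.17, FDR = 4.56e-13). Counts of Tubb3 came to 11.2, 12.3, 10.5 and 13.1 CPM in EGF/FGF and to 121, 129.7, 190.4 and 217 in BMP. The difference was 3.79 (SE 0.16, FDR = 2.17e-13). In all 3 the BL6 libraries lay above the ANS4 libraries under BMP, and the rise was larger in BL6 for Dlx2 by 0.83 and for Tubb3 by 0.69 (interaction FDR = 0.00289 and 0.00702); for Dcx the line difference did not pass (0.94, FDR = 0.147). Dlx5, an interneuron homeobox gene, was at the floor in EGF/FGF and at 8.39, 8.14, 21.9 and 20.6 CPM in BMP, at least 52.1-fold higher. Dlx6os1 was read at 0, 0.155, 0 and 0.207 CPM in EGF/FGF and at 13.9, 15.4, 43.4 and 36.4 in BMP. This gave a log2 fold change of 8.10 (SE 0.31, FDR = 7.11e-14). This long non-coding gene overlaps Dlx6 on the other strand, and the sources used here do not say whether reads were assigned by strand. The 3 falls were those of Stmn1, a tubulin-binding protein that dividing cells also use (397–469.6 to 224–389 CPM, −0.46, SE 0.11, FDR = 0.000872), Gad2 and Sox11. Gad2 fell from a mean of 27.7 CPM in EGF/FGF to 21.39 in BMP (−0.37, SE 0.14, FDR = 0.0188). Sox11 fell from a mean of 178.5 to 144.4 CPM (−0.32, SE 0.083, FDR = 0.00186). Of 8 tested markers of mature neurons 5 were higher, 4 of them by more than 1.5, 2 were lower and 1 did not pass, and the median was 1.31. The 2 lower ones were Nefl and Nefm. Nefl fell from a mean of 5.065 CPM in EGF/FGF to 0.979 in BMP (−2.32, SE 0.28, FDR = 4.63e-07). Nefm fell from a mean of 18.2 to 6.73 CPM (−1.38, SE 0.23, FDR = 2.25e-05). Camk2a, a synaptic kinase, rose from 0.414–0.724 to 6.21–8.34 CPM (3.58, SE 0.22, FDR = 5.01e-11), and Syt1 and Slc32a1, genes of synaptic vesicles, were at the floor in EGF/FGF and at least 16.3-fold and 5.31-fold higher. The summed level of these markers did not pass (exact permutation test, two-sided, p = 0.543): it was 21.2 and 22.6 CPM in EGF/FGF and 28.5 and 29.8 in BMP in ANS4, but 42.1 and 37.5 and then 37.4 and 40.1 in BL6, with Rbfox3 at 0.209 CPM or less in all 8 libraries.

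The oligodendrocyte list also split, with 8 of 13 higher, 5 lower and a median of 1.44. The summed level of the 16 listed genes did not pass (exact permutation test, two-sided, p = 0.571). In ANS4 the sum was 1825 and 1938 CPM in EGF/FGF and 1435 and 1505 in BMP. In BL6 it was 1836 and 1729 CPM in EGF/FGF and 1927 and 2128 in BMP. Gpr17 stood at 3.73, 4.19, 1.15 and 1.602 CPM in EGF/FGF and at 148, 148, 285 and 308 CPM in BMP. In log2 terms the change was 6.32 (SE 0.28, FDR = 6.33e-13). Gpr17, a receptor of precursors about to differentiate, rose more in BL6 (line difference 2.52, interaction FDR = 1.28e-06). Enpp6 rose from 0.103–0.2602 to 3.203–8.19 CPM (4.90, SE 0.30, FDR = 5.40e-11). In EGF/FGF Olig2 was at 599.8, 619.5, 608 and 564 CPM, and in BMP at 218, 209.8, 306 and 365. On the log2 scale this is −1.14 (SE 0.12, FDR = 9.24e-08). Olig1 fell as well (880.5–976 to 348–628 CPM, −0.98, SE 0.12, FDR = 1.05e-06), both less in BL6, and Sox10 was too low to be tested, at 0.626 CPM or less. Of 8 tested ependymal markers, 8 rose, with a median of 2.83. Of these, Dnah5 (mean 0.039 CPM in EGF/FGF, 2.37 in BMP) and Spag6l (0.065 and 1.095) could not pass the filter on their EGF/FGF libraries. Their direction was thus in part fixed by the filter. The summed level, which holds untested markers too, was 244.8 to 300.0 CPM in BMP and 65.8 to 82.4 in EGF/FGF. Foxj1, the master factor of motile cilia, went from 51.8–69.2 to 173–208 CPM (1.71, SE 0.076, FDR = 6.67e-13) and Cfap126, a cilium protein, from 0.937–1.86 to 38.4–51.8 CPM (5.10, SE 0.13, FDR = 3.79e-16). Akap14 and Dnah9, parts of motile cilia, were at the floor in EGF/FGF and at least 31.2-fold and 41.1-fold higher. Of 26 genes of the primary cilium, 15 rose and 5 fell with a median of 0.41, led by Bbs1 (1.91, SE 0.074, FDR = 9.71e-14).

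**Figure D3:**
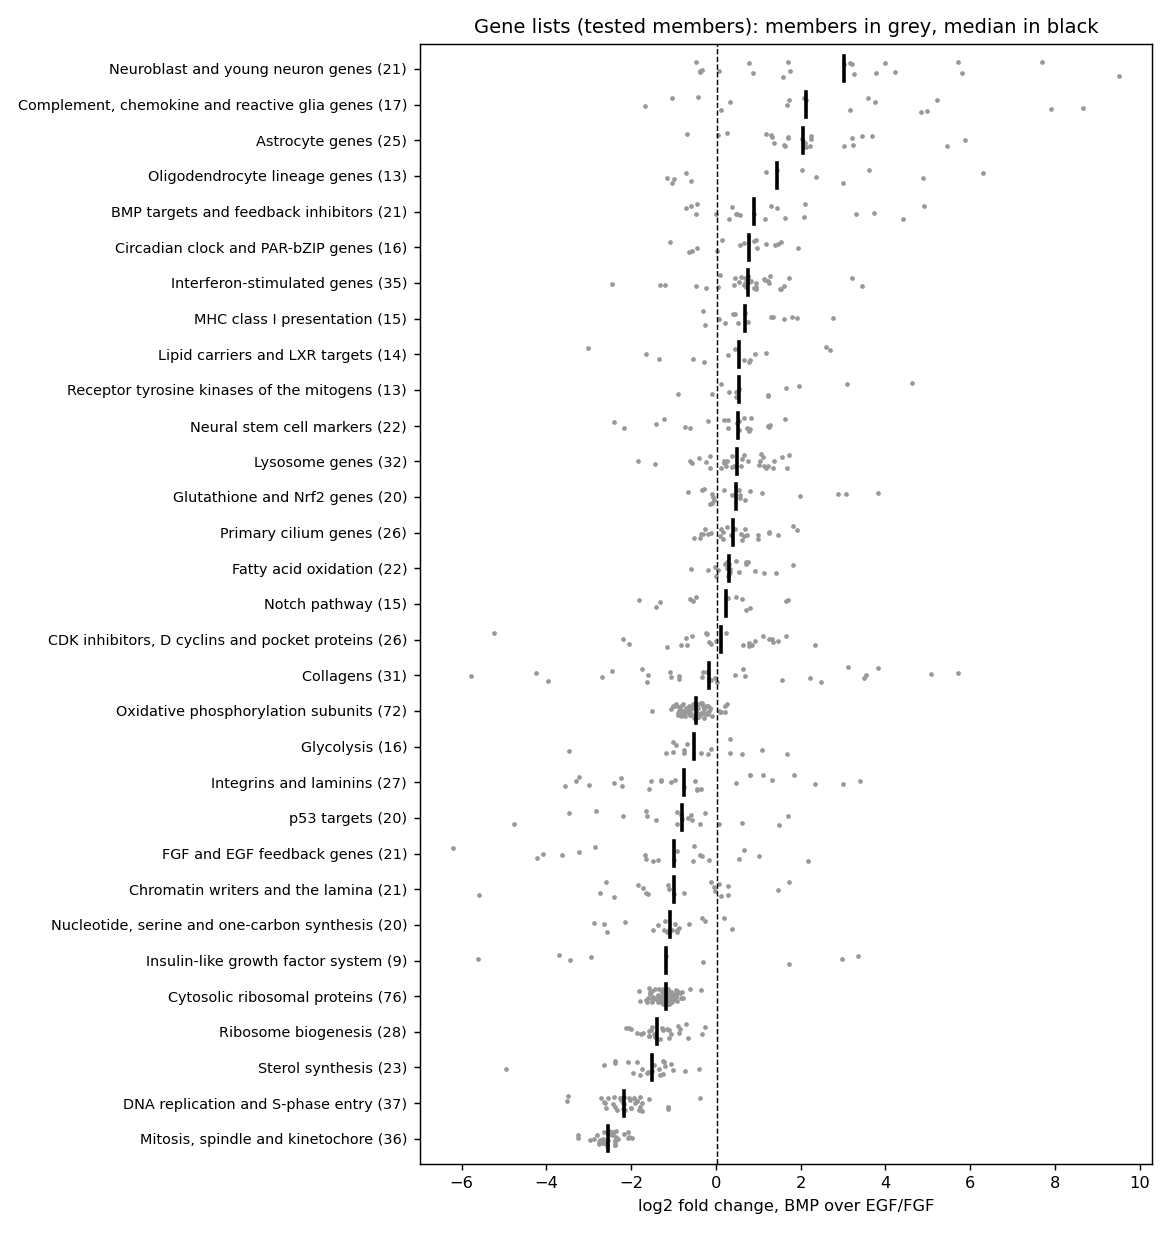
Log2 fold change of BMP over EGF/FGF for each tested member (grey points) of 31 gene lists, with the list's median as a black bar; the dashed line is the median over all 13312 tested genes, 0.02. The replication, mitosis, sterol and ribosome lists lie wholly left of 0, and of the lists drawn the neuroblast, complement and astrocyte lists have the highest medians; 5 lists of markers of other cell types, among them the ependymal list with a median of 2.83, and the Hedgehog list are not drawn.

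Genes for growth fell. All 28 ribosome biogenesis genes were lower (median −1.38), and so were all 76 tested genes of cytosolic ribosomal proteins (median −1.19, 11 of them past 1.5). The level of Ncl was 832, 714, 998 and 954 CPM in EGF/FGF and 397, 329.9, 469 and 419 in BMP. BMP thus differed from EGF/FGF by −1.11 (SE 0.091, FDR = 2.81e-09). Nucleolin, a main protein of the nucleolus, stands for the biogenesis genes, and Gnl3 (nucleostemin) fell from 78.6–101 to 16.2–25.8 CPM (−2.11, SE 0.091, FDR = 4.10e-13) and Nop56 from 131–161 to 29.3–38.1 CPM (−2.04, SE 0.077, FDR = 7.49e-14). Rps18 fell from 530.2–599 to 174–183 CPM (−1.65, SE 0.065, FDR = 1.13e-13) and Rpl12 from 384–432 to 112–122 CPM (−1.78, SE 0.063, FDR = 2.82e-14); ribosomal protein genes have many processed copies, with which estimated counts can be shared. Of 20 genes for nucleotide, serine and one-carbon synthesis, 18 fell and 1 rose (median −1.09). Mthfd2, a mitochondrial folate enzyme, went from 35.7–40.6 to 4.17–7.05 CPM (−2.86, SE 0.13, FDR = 5.04e-13), Shmt1 from 44.4–51.7 to 5.63–9.69 CPM (−2.64, SE 0.11, FDR = 2.70e-13) and Cad, which starts pyrimidine synthesis, from 138–151 to 49.5–58.4 CPM (−1.47, SE 0.066, FDR = 6.78e-13). Phgdh, the first enzyme of serine synthesis, was the gene that rose, with overlapping ranges (266–316 to 282–462 CPM, 0.38, SE 0.09, FDR = 0.000752), and in BL6 alone it did not pass (adjusted p = 0.0961).

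Sterol synthesis fell in full: 23 of 23 genes decreased, 11 of them by more than 1.5, and the median was −1.49. For Fdps the EGF/FGF libraries gave 321, 336, 216 and 240.1 CPM and the BMP libraries 61.1, 67.9, 41.5 and 42.3. Its log2 fold change was −2.39 (SE 0.11, FDR = 1.23e-12). Fdps makes farnesyl diphosphate, a precursor of sterols and of lipid anchors of proteins. Hmgcs1, an early enzyme of the pathway, fell less, from 1947–2868 to 734–1380 CPM (−1.20, SE 0.10, FDR = 5.12e-09). Lipid carriers and LXR targets, which act in sterol export, gave 9 rises and 4 falls among 14 (median 0.56): In the EGF/FGF libraries Abca1 held 154, 154, 115 and 120.5 CPM, and in the BMP libraries 741, 734, 982 and 854. The log2 fold change was 2.59 (SE 0.13, FDR = 3.24e-12). This cholesterol exporter rose more in BL6 (line difference 0.70, interaction FDR = 0.00018), and Pltp rose from 16.6–21.2 to 97.2–139 CPM (2.69, SE 0.097, FDR = 3.85e-14), whereas Lpl, a lipase, fell from 25.4–32.5 to 8.03–9.94 CPM (−1.65, SE 0.11, FDR = 1.65e-10).

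Energy genes changed less. Of 72 subunits of oxidative phosphorylation 61 fell and 2 rose, but with a median of −0.46 and 1 past 1.5; Atp5b went from 1574–1666 to 760.0–878 CPM (−1.01, SE 0.06, FDR = 3.08e-11), and the 2 that rose were Sdha (0.21, SE 0.074, FDR = 0.0145) and Ndufa3 (0.26, SE 0.10, FDR = 0.0289), both with overlapping ranges. Both calls were lost in BL6 alone (adjusted p = 0.245 and 0.431) and without either ANS4 BMP library (0.0544 to 0.0741), and that of Ndufa3 also without either ANS4 EGF/FGF library, BL6 EGF/FGF replicate 2 or BL6 BMP replicate 1 (0.0506 to 0.108) and with no line term (0.0632). Of 16 glycolysis genes 9 fell and 5 rose (median −0.52). Dividing cells read Hk2 at 24.7, 26.2, 28 and 28.98 CPM and BMP cells at 2.26, 2.55, 1.92 and 3.02. The estimate was −3.46 (SE 0.13, FDR = 4.39e-14). Hk2 is the hexokinase of dividing cells, and Pkm, pyruvate kinase, and Ldha fell less (−0.94, SE 0.059, FDR = 8.08e-11 and −1.005, SE 0.078, FDR = 1.29e-09). Pfkm and Ldhb rose from 82.9–104 to 277–342 CPM (1.67, SE 0.066, FDR = 1.20e-13) and from 222–246 to 457–524 CPM (1.10, SE 0.056, FDR = 3.92e-12). Of 22 genes of fatty acid oxidation 17 rose and 2 fell (median 0.32). Acsl6 rose from 21.7–27.2 to 65.6–109.6 CPM (1.83, SE 0.097, FDR = 6.31e-12) and Acaa2 from 28.3–38.7 to 63.5–81.4 CPM (1.14, SE 0.084, FDR = 7.24e-10), while Cpt1a, which admits fatty acids to mitochondria, did not pass (93.6 to 133 CPM in EGF/FGF and 112 to 120 in BMP; 0.048, SE 0.086, FDR = 0.615). Lysosome genes rose in 22 of 32 and fell in 6 (median 0.51), with Ctsb at 1393 to 1779 CPM from 453 to 572 (1.68, SE 0.084, FDR = 3.22e-12) and Lamp1 at 1317 to 1492 from 602 to 706 (1.11, SE 0.059, FDR = 7.30e-12).

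The matrix around the cells changed in both directions. Tnc went from 1611, 1664, 1780 and 1745 CPM in EGF/FGF to 12.9, 13.4, 12.1 and 11.9 in BMP. That is a log2 fold change of −7.08 (SE 0.079, FDR = 2.12e-20). Tenascin-C, a matrix glycoprotein of the SVZ niche, had the lowest p-value of all genes. Counts of Lamb1 came to 244, 254, 281 and 278 CPM in EGF/FGF and to 22.8, 22.6, 21.7 and 22.3 in BMP. The difference was −3.56 (SE 0.066, FDR = 2.86e-17). Col18a1 was read at 323, 339, 337 and 343 CPM in EGF/FGF and at 20.3, 19.9, 15.4 and 15.3 in BMP. This gave a log2 fold change of −4.25 (SE 0.084, FDR = 3.61e-17). These basement membrane genes were lower in every BMP library by more than 10-fold. Of 27 integrin and laminin genes 17 fell and 9 rose (median −0.74), the rises including Itgb4 (0.569–1.602 to 10.3–15.3 CPM, 3.40, SE 0.18, FDR = 9.91e-12) and Lama3 (0.621–0.885 to 5.19–6.53 CPM, 3.00, SE 0.18, FDR = 4.58e-11). Of 31 collagen genes 15 fell and 11 rose (median −0.15), with Col3a1 at the floor in BMP (at least 5.01-fold lower) and Col9a2 at the floor in EGF/FGF (at least 15.9-fold higher). Spp1 (osteopontin) fell from 69.7–116 to 1.77–2.65 CPM (−5.41, SE 0.19, FDR = 2.05e-14) and the protease gene Adamts14 from 151–187 to 3.87–5.37 CPM (−5.17, SE 0.10, FDR = 3.61e-17). In the insulin-like growth factor system 5 of 9 fell and 3 rose. Igfbp2 stood at 689, 688, 568 and 619 CPM in EGF/FGF and at 15.6, 17.3, 8.71 and 11 CPM in BMP. In log2 terms the change was −5.62 (SE 0.13, FDR = 2.45e-16). Igfbp3 fell from 2010–2495 to 159–188 CPM (−3.70, SE 0.09, FDR = 3.41e-16) and Igf1 from 3.72–6.41 to 0.277–0.607 CPM (−3.43, SE 0.24, FDR = 4.19e-10), whereas Igfbp5 rose from 56.02–60.3 to 370.3–567 CPM (2.97, SE 0.10, FDR = 3.02e-14).

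Immune and reactive glia genes rose. Of 17 genes for complement, chemokines and reactive glia 12 rose, all past 1.5, and 3 fell, with a median of 2.13. In EGF/FGF C3 was at 2.12, 2.69, 1.04 and 5.32 CPM, and in BMP at 1119, 1160, 1155 and 1125. On the log2 scale this is 8.67 (SE 0.22, FDR = 4.83e-16). C3, the central complement component, had the largest rise among genes above the floor in both conditions with a mean of at least 1 CPM. It was low but read in every EGF/FGF library, at 20 to 103 counts. The 2 BL6 replicates in EGF/FGF lay apart, at 1.04 and 5.32 CPM, and the size of the fold rests on this low level. The level of Lcn2 was 0.984, 1.08, 0.208 and 0.362 CPM in EGF/FGF and 180.3, 168, 132 and 160.2 in BMP. BMP thus differed from EGF/FGF by 7.91 (SE 0.18, FDR = 2.45e-16). Lipocalin-2 and Serpina3n, both known from reactive astrocytes, rose without overlap, the latter from 0.677–1.03 to 28.6–34.99 CPM (5.22, SE 0.12, FDR = 2.62e-16). C4b rose from 14.1–21.3 to 227–247 CPM (3.76, SE 0.11, FDR = 1.77e-15); its near-identical copy C4a can share its reads. Timp1 and Cxcl14 fell (−1.03, SE 0.085, FDR = 3.25e-09 and −1.68, SE 0.19, FDR = 2.97e-07). Of 35 interferon-stimulated genes 26 rose and 3 fell (median 0.77). For Ifit3 the EGF/FGF libraries gave 18.2, 17.2, 5.57 and 3.41 CPM and the BMP libraries 113, 95.3, 96.8 and 82.7. Its log2 fold change was 3.21 (SE 0.25, FDR = 1.77e-09). In the EGF/FGF libraries Gbp2 held 29.6, 33.2, 13.4 and 13.2 CPM, and in the BMP libraries 258, 232, 243 and 226. The log2 fold change was 3.46 (SE 0.19, FDR = 1.58e-11). In both genes the EGF/FGF level was lower in BL6 than in ANS4 and the rise larger, by 1.76 and 1.18 (interaction FDR = 5.96e-05 and 1.26e-05). These members are antiviral and antibacterial effectors, and some of the list are genes that the study picked from these libraries, so the list is not independent of them. Oasl1 fell (2.02–3.52 to 0.259–0.773 CPM, −2.45, SE 0.27, FDR = 1.74e-07). Of 15 genes of MHC class I presentation 11 rose and 1 fell (median 0.69), with H2-D1 at 284 to 336 CPM from 77.8 to 108 (1.801, SE 0.078, FDR = 4.81e-13), B2m at 189.9 to 239 from 118 to 158 (0.69, SE 0.082, FDR = 4.34e-07) and the loading factor Tapbp at 120.2 to 166 from 34.2 to 44.3 (1.92, SE 0.092, FDR = 1.84e-12). Class I heavy chain genes are similar in sequence and can share counts.

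Metal and redox genes also rose: of 20 glutathione and Nrf2 genes 12 were higher and 3 lower (median 0.47). Dividing cells read Mt2 at 71.3, 89.6, 69.01 and 75.7 CPM and BMP cells at 1077, 1251, 881 and 1104. The estimate was 3.82 (SE 0.10, FDR = 1.13e-15). Prdx6 went from 588, 582, 458 and 485 CPM in EGF/FGF to 4791, 4379, 3320 and 3264 in BMP. That is a log2 fold change of 2.89 (SE 0.096, FDR = 1.31e-14). Mt2 is a metallothionein, which binds zinc and copper, and Prdx6 a peroxiredoxin of astrocytes. Mt1, a neighbour of Mt2 with a similar sequence, rose from 155–185 to 1129–1646 CPM (3.07, SE 0.10, FDR = 1.67e-14). Nqo1, a standard Nrf2 target, did not pass (−0.081, SE 0.097, FDR = 0.454), nor did it separate the groups.

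Of 21 tested genes for chromatin writers, related chromatin proteins and the lamina, 12 were lower, 4 higher and 5 did not pass, with a median of −0.99. Counts of Hmga2 came to 52.4, 48.3, 72.9 and 66.9 CPM in EGF/FGF and to 1.05, 1.22, 1.45 and 1.25 in BMP. The difference was −5.58 (SE 0.11, FDR = 2.99e-17). This architectural protein of fetal and dividing stem cells was almost lost. Uhrf1 and Dnmt1, which copy DNA methylation after replication, fell from 183–207 to 30.3–36.2 CPM (−2.59, SE 0.065, FDR = 4.83e-16) and from 378–466 to 98.4–136 CPM (−1.84, SE 0.077, FDR = 2.82e-13). Ezh2, the polycomb methyltransferase of dividing cells, fell from 159–206 to 51.2–65.2 CPM (−1.60, SE 0.086, FDR = 8.01e-12), while its paralogue Ezh1 rose from 10.97–12.2 to 28.2–37.3 CPM (1.47, SE 0.088, FDR = 3.41e-11) and Cbx7 from 3.05–4.68 to 10.8–16.3 CPM (1.73, SE 0.12, FDR = 3.03e-10). Lamin B1 (Lmnb1) fell from 272–323 to 81.5–115 CPM (−1.71, SE 0.086, FDR = 3.64e-12). Of 16 clock genes 10 rose and 4 fell (median 0.78): the PAR-bZIP factors Dbp and Hlf rose from 29.7–51.6 to 95.3–125 CPM (1.53, SE 0.098, FDR = 9.02e-11) and from 11.8–13.6 to 46.5–52.7 CPM (1.94, SE 0.072, FDR = 5.37e-14), Per1 from 40.01–44.4 to 56.9–71.7 CPM (0.56, SE 0.069, FDR = 7.28e-07), and Clock fell from 183–210.2 to 86.9–96.6 CPM (−1.07, SE 0.061, FDR = 1.94e-11).

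Outside the lists, the smallest p-values among rising genes belonged to Gnao1, a G protein subunit, Hspb8, a small heat shock protein, Fxyd1, a regulator of the sodium pump, Drp2 and Arvcf. Hspb8 was read at 13.3, 11.7, 10.7 and 11.6 CPM in EGF/FGF and at 271, 266, 279 and 309 in BMP. This gave a log2 fold change of 4.57 (SE 0.079, FDR = 1.67e-17). Fxyd1 stood at 0.828, 1.08, 0.468 and 0.827 CPM in EGF/FGF and at 154, 151, 148 and 196 CPM in BMP. In log2 terms the change was 7.64 (SE 0.14, FDR = 2.86e-17). In neither gene did a BMP library come near an EGF/FGF library, and Fxyd1 was at most 1.08 CPM in dividing cells. Gnao1 rose from 8.27–9.61 to 111–127 CPM (3.72, SE 0.066, FDR = 1.67e-17), Drp2 from 3.52–5.32 to 90.8–139 CPM (4.67, SE 0.088, FDR = 2.86e-17) and Arvcf from 37.04–39.8 to 385–455 CPM (3.45, SE 0.066, FDR = 2.97e-17). The 10 largest rises also held Chil1, a chitinase-like protein of astrocytes (0.0517–0.3101 to 27.2–36.6 CPM, 7.32, SE 0.18, FDR = 3.78e-16), Ddo, D-aspartate oxidase (0.05204–0.362 to 21.9–24.1 CPM, 7.04, SE 0.20, FDR = 1.77e-15), and Entpd2, an ectonucleotidase of NSCs and glia (0–0.413 to 12.1–16.3 CPM, 6.48, SE 0.29, FDR = 8.13e-13). The 10 largest falls also held Barx2, a homeobox gene (9.37–12.49 to 0.0554–0.415 CPM, −5.37, SE 0.25, FDR = 1.22e-12), the prokineticin receptor gene Prokr1 (23.9–26.8 to 0.469–0.939 CPM, −5.28, SE 0.15, FDR = 2.26e-15) and Cpne7 (6.21–8.9 to 0.1104–0.259 CPM, −5.17, SE 0.24, FDR = 1.44e-12). Several of these folds rest on a few counts in the lower condition, where the level was under 0.5 CPM. At the floor in EGF/FGF were also Ly6h and the transcription factor St18, at least 38.2-fold and 25.1-fold higher in BMP. At the floor in BMP were Adamts19, F2rl2, Ano1, Plaur and Rerg, at least 78.7-fold, 21.5-fold, 15.0-fold, 14.3-fold and 8.42-fold lower.

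The 2 lines changed alike in most genes and apart in some. Past 1.5, 1417 of the 1445 higher genes and 910 of the 925 lower genes passed the test in the same direction in each line alone. The change differed between the lines in 1201 genes (9.02%; interaction, edgeR quasi-likelihood test at FDR under 0.05), 718 with a higher value in BL6 and 483 with a lower one; with scaling by library size only these were 892 and 365. With the 8 libraries of EGF/FGF and BMP alone in the fit the number was 615. Without BL6 BMP replicate 1 it was 2437. Left out in turn, ANS4 EGF/FGF replicates 1 and 2, ANS4 BMP replicate 1 and BL6 EGF/FGF replicates 1 and 2 brought it to 612 to 689. By list, a line difference was found in 13 of 21 neuroblast genes, 13 of 35 interferon-stimulated genes and 9 of 13 oligodendrocyte genes, against 0 of 37 replication genes, 0 of 27 integrin and laminin genes and 1 of 76 ribosomal protein genes. The medians of ANS4 and BL6 were 2.25 and 3.43 for the neuroblast list, 0.72 and 0.99 for the interferon list, −2.65 and −2.38 for mitosis and −1.36 and −1.64 for sterol synthesis.

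**Figure D4:**
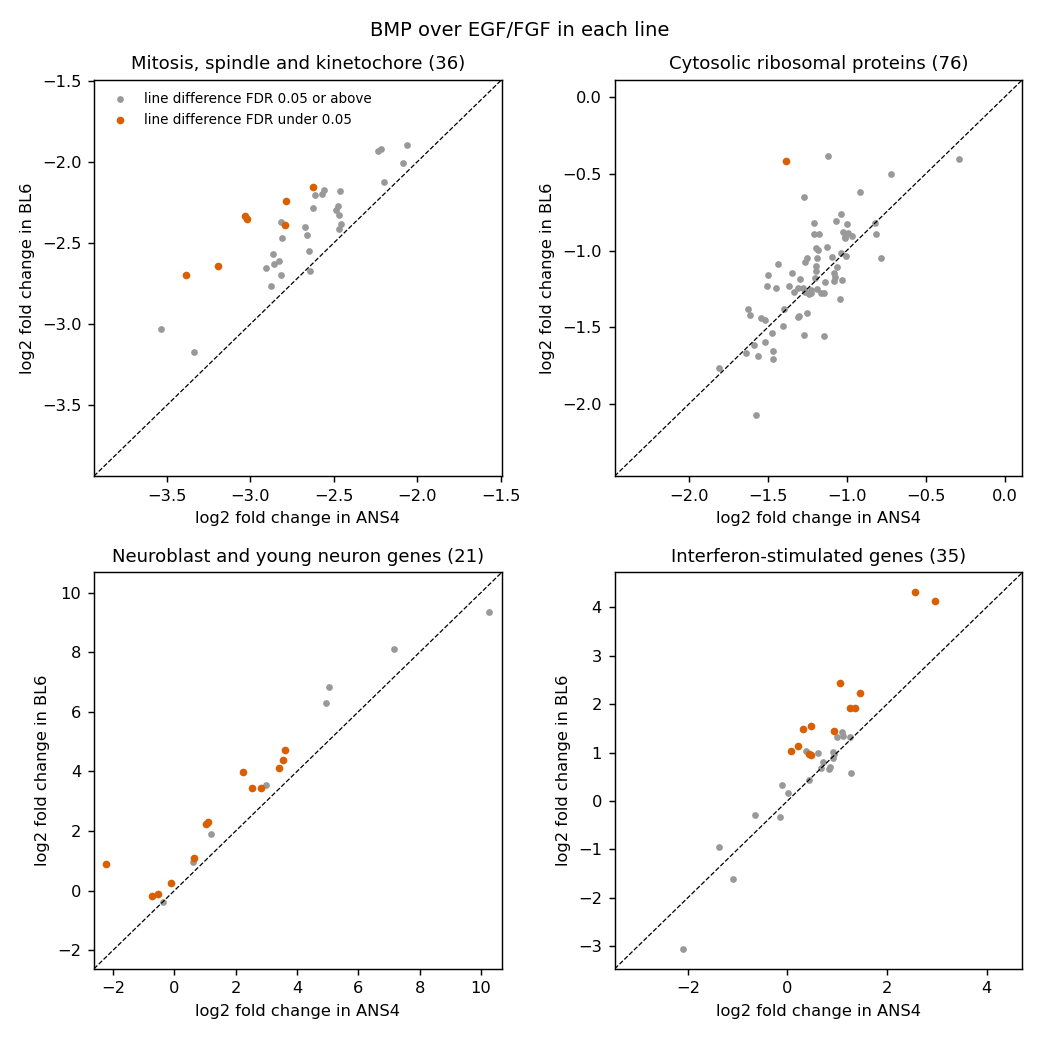
Log2 fold change of BMP over EGF/FGF in ANS4 (horizontal axis) and BL6 (vertical axis) for the members of 4 gene lists, with the line of equal change dashed. Above the line lie 35 of 36 mitosis genes, 43 of 76 ribosomal protein genes, 19 of 21 neuroblast genes and 27 of 35 interferon-stimulated genes; orange marks the 7, 1, 13 and 13 genes with a line difference at FDR under 0.05.

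Markers of other cell types were looked at because the cultures could hold such cells. Of 12 microglia markers 6 were in the count table, which did not hold Aif1, Tyrobp, C1qa, C1qb, C1qc or Trem2, and they summed to 5.31 to 6.18 CPM in BMP and 9.61 to 14.9 in EGF/FGF (exact permutation test, two-sided, p = 0.0286, the smallest that 4 against 4 libraries can give). Endothelial markers summed to 6.73 to 11.2 CPM in BMP and 42.1 to 49.8 in EGF/FGF, most of which was Flt1 in EGF/FGF (36.5–45.6 to 3.96–5.44 CPM), with Cldn5 and Cdh5 not in the table. Mural and fibroblast markers summed to 12.3 to 17.3 CPM in BMP and 9.47 to 11.7 in EGF/FGF (both lists at the same exact p). These sums moved with the conditions, and their part in the results above was not tested. The microglia sum, lower in BMP, holds only 6 of the 12 markers, and which cells the immune genes that rose came from was not tested.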

How the data were processed

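RNA-seq libraries were made with a low input protocol and sequenced on a BGISEQ-500RS. Reads were trimmed by the authors (Trim Galore 0.5.0), and transcripts of mm10 were quantified with kallisto 0.44.0 and summed to genes with Tximport. The authors deposited expected counts as whole numbers and a table of log2 values (rlog, DESeq2 1.27.32). Strandedness is not given in the sources used here. All 12 libraries and 0 columns of other samples entered.

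The filterByExpr function of edgeR left 13312 genes and removed 4053. It took the condition as group, so a gene read in 1 condition alone could be kept. List members at a floor in 1 condition passed only through the others, and their direction in a list count was in part fixed by this. Counts were scaled by TMM (factors 0.972 to 1.03) and fitted with glmQLFit on condition and cell line; BMP was tested against EGF/FGF with glmQLFTest, two-sided, with Benjamini-Hochberg adjustment over all tested genes (R 4.3.3, edgeR 4.0.16). The line difference was tested as an interaction. CPM used TMM-scaled totals, and 3 counts equal 0.155 to 0.166 CPM. A fold at a floor is given against 3 counts per library. Marker sums were compared on log2(CPM + 0.1) with an exact permutation test. Steps were tested on simulated data. Promoters came from RefSeq on GRCm38.p6, and Id1 and Aurkb had no entry.

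The named genes are the 10 largest rises and falls (FDR under 0.05, mean of at least 1 CPM, above the floor, same direction in 4 pairs), the 5 highest at a floor in either direction, the 5 lowest p in either direction and, per list, fixed anchors, the 3 largest changes and up to 2 against the median; some genes that this rule names are not reported here. Members, lists and tests were chosen with earlier results of these data known. The alternatives were DESeq2 1.42.0 size factors and Wald test, library size only, limma 3.58.1 (limma-trend on the rlog values), no filter, no line term, a replicate block, the 8 libraries alone, each line alone, each library left out, and 1 CPM added to marker sums. Leaving out libraries for the line difference was added after the data were seen. The replicates are biological per the labels, and whether they came from separate thaws or passages is not stated.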

Additional observations from a re-analysis of the deposited data

Results flagged for a closer look

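Over all 13312 tested genes, the change from EGF/FGF to BMP differed between ANS4 and BL6 in 1201 (9.02%) at FDR under 0.05 (interaction, edgeR quasi-likelihood test). With only the 8 libraries in the fit, the number was 615. The genes named in the text were picked in part for large changes or low p-values, so they are not a neutral sample. Of the 172 tested among them, 40 differed by the same test, with a higher value in BL6 in 27 and a lower one in 13. The values are BL6 minus ANS4 on the log2 scale. Among cell cycle, p53 and growth factor genes these were Ccnd1 (0.85, FDR = 1.16e-05), Cenpe (0.69, FDR = 0.0196), Etv4 (0.74, FDR = 0.0132), Etv5 (0.66, FDR = 0.000424), Fas (0.69, FDR = 0.0125), Fos (0.80, FDR = 0.000109), Igfbp2 (−0.52, FDR = 0.0236), Igfbp3 (−0.50, FDR = 0.000569), Igfbp5 (−0.59, FDR = 0.000794), Mdm2 (0.32, FDR = 0.0456), Mki67 (0.55, FDR = 0.00624), Myc (0.94, FDR = 0.000109) and Plk2 (0.53, FDR = 0.00494). Among genes of stem cells, glia and neurons these were Clu (0.63, FDR = 0.00241), Dll1 (0.43, FDR = 0.0246), Dll3 (0.85, FDR = 0.00296), Dlx2 (0.83, FDR = 0.00289), Fabp7 (−0.77, FDR = 0.00925), Gfap (0.78, FDR = 0.000255), Gli3 (−0.78, FDR = 0.00616), Gpr17 (2.52, FDR = 1.28e-06), Nes (−0.35, FDR = 0.0467), Olig1 (0.68, FDR = 0.00157), Olig2 (0.71, FDR = 0.000399), Pdgfra (0.98, FDR = 4.97e-05), Sparcl1 (−0.68, FDR = 0.00636), Stmn1 (0.56, FDR = 0.00307) and Tubb3 (0.69, FDR = 0.00702). Among metabolic, matrix and immune genes these were Abca1 (0.70, FDR = 0.00018), Acsl6 (−0.39, FDR = 0.0328), C4b (0.44, FDR = 0.0222), Col18a1 (−0.43, FDR = 0.0208), Cpt1a (0.38, FDR = 0.0178), Cxcl14 (−0.96, FDR = 0.0415), Gbp2 (1.18, FDR = 1.26e-05), Hmgcs1 (−0.32, FDR = 0.0231), Ifit3 (1.76, FDR = 5.96e-05), Lcn2 (1.58, FDR = 0.0486), Ldha (−0.36, FDR = 0.0253) and Spp1 (−1.03, FDR = 0.00897). Each line is 1 culture, and the cause was not tested.

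A single library lay apart from the other 3 of its condition by Dixon's test in 8 of 310 sets of 4 libraries of the named genes, where chance gives about 1 in 20 for 4 like libraries; each set here holds 2 libraries of either line, so that this share does not apply as it stands. These were Atoh8 in BL6 BMP replicate 2 (37.5 CPM against 24.4 to 25.5), Aurkb in ANS4 EGF/FGF replicate 1 (67.5 CPM against 78.01 to 79.99), Cxcl14 in BL6 BMP replicate 1 (1.503 CPM against 2.61 to 2.71), Foxo3 in BL6 BMP replicate 1 (97.9 CPM against 85.8 to 87.5), Fxyd1 in BL6 BMP replicate 2 (196 CPM against 148 to 154), H2-D1 in BL6 BMP replicate 1 (284 CPM against 334 to 336), Ndufa3 in BL6 EGF/FGF replicate 2 (22.9 CPM against 29.7 to 30.9) and Pkm in ANS4 EGF/FGF replicate 1 (1284 CPM against 1333 to 1342).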

How the results depend on the processing

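Depth, at 18069052 to 19451818 counts per library, limits genes near 3 counts, where folds are lower bounds, and 4 libraries against 4 cannot give an exact p below 0.0286. Over 10 alternatives the number of differing genes ran from 10096 (BL6 alone) to 11153 (no filter), and from 10320 to 10527 with each library left out in turn. The higher genes past 1.5 numbered 857 by limma-trend on rlog values, which shrink low genes, and 1370 to 1853 otherwise. The lower genes past 1.5 numbered 652 to 1172. Leaving out libraries gave 1460 to 1525 higher and 918 to 967 lower. Line differences fell to 615 with the 8 libraries alone (no filter 872) and ran from 612 to 2437 with a library left out; the cause was not tested. The 2 BL6 BMP replicates differed from each other more than those of any other group. Their chi-square per gene, on the counts, was 12.29, against 2.129 (BL6 BMP/FGF) to 4.707 (ANS4 BMP) elsewhere. With replicate number as a block, 10399 genes differed, and 1440 were higher and 924 lower past 1.5. Whether the numbers pair the libraries is not known, since no label says that libraries of the same number share a culture. The correlation between the 2 conditions' replicate differences over 10128 genes was 0.309 for ANS4 but −0.0624 for BL6. Of 37 list medians, 36 kept their sign under all 18 alternatives; that of the CDK inhibitor list was −0.16 in ANS4 alone. Setting genes at a floor to their bound changed no list median. Of 172 named genes, 167 kept direction and call throughout. Cdkn1c, −0.53 in ANS4 alone and 0.50 in BL6 alone, took the values 0.016, 0.008, 0, 0, 0.50, 0.18, 0.018, 0.034 and 0.14 and ran from −0.20 to 0.18 with a library left out, and Cpt1a took −0.13 in ANS4 alone, −0.0050 and −0.022 without BL6 EGF/FGF replicates 1 and 2 (up to 0.13 without other libraries), and 0.23 in BL6 alone, where it passed (adjusted p = 0.00967). Adding 1 CPM to marker sums changed no direction or call.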
